A study of Mus musculus with 12 samples.

Results

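The thrombospondins are a family of secreted glycoproteins of the extracellular matrix, and COMP (cartilage oligomeric matrix protein) is counted among them. The mouse genes are Comp, Thbs1, Thbs2, Thbs3 and Thbs4. They were taken as every transcript cluster (the probe set of one locus) to which the platform annotation gives exactly that 1 gene symbol. Each gene had 1 such cluster, so that 5 clusters stand for 5 genes, of 21789 clusters with a single symbol and 35556 in all. The identifiers are 10572378 for Comp, 10474700 for Thbs1, 10447951 for Thbs2, 10493449 for Thbs3 and 10411082 for Thbs4. Comp was chosen by its log2 differences with PDGF-AA in earlier results of these arrays, while the other 4 genes came in by family. The PDGF-AA values of Comp are therefore a description, and no call of Comp given below is read as support.

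The arrays measured gene expression in fibro/adipogenic progenitors (FAPs), mesenchymal cells of skeletal muscle that can form fibroblasts and adipocytes. Cells came from uninjured hindlimbs of male C57/Bl6 mice aged 8 to 12 weeks, with cells of 2 mice pooled for each biological replicate, and all groups were grown for 2.5 days and then transfected 2 times with an AMO (an antisense oligonucleotide) at 10 µM, 48 hours apart. The pA AMO is directed at the intronic polyadenylation site of Pdgfra, the gene of the PDGF-AA receptor, and the 5'ss AMO at an intronic 5' splice site of it, while the control AMO serves as the reference for both. The 6 groups are the pA AMO, the 5'ss AMO and the control AMO, each with PDGF-AA during the second 48 hours and each without it, on 2 arrays per group and 12 in all. The labels give the PDGF-AA dose as 50 uM, which is high for a growth factor and was not checked.

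Thrombospondins bind calcium, collagens, proteases, growth factors and cell surface receptors, and they tune how cells attach to and organise the matrix more than they build it. Thbs1 and Thbs2 encode the trimeric members, which carry type 1 repeats, bind the receptor CD36 and restrain blood vessel growth, and thrombospondin 1 can also release active TGF-beta from its latent complex. Comp, Thbs3 and Thbs4 encode the pentameric members, which lack those repeats. COMP brings collagen molecules together into fibrils and is abundant in cartilage and tendon, and Thbs4 is made in tendon and in muscle.

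Values are log2 RMA signals, where a difference of 1 is a doubling of the signal, and the levels of the 5 genes are not set against each other, since probe sets differ in response. For the check of cell types only, marker genes are placed by percentile of their mean among all 21789 clusters, a rough guide for the same reason. All arrays had medians between 6.04 and 6.23. Of the FAP and fibroblast markers, 8 of 8 were above the 50th percentile, with Pdgfra between 12.72 and 12.92 and Dcn, a matrix proteoglycan of fibroblasts, between 13.15 and 13.48 on the 12 arrays. Markers of other cells that make thrombospondins were mixed. Of the endothelial markers 2 of 6 were above the 50th percentile, with Emcn lowest at 4.21 to 4.6 and Tek, a receptor kinase, highest at 8.51 to 9.26. Of the cartilage markers 3 of 9 were, with Hapln1 lowest at 3.90 to 4.22 and Sox9 highest at 9.88 to 10.29. Of the tendon markers 3 of 5 were, with Scx at 6.80 to 7.27 and Tnmd at 6.50 to 7.15. Of the platelet markers 0 of 4 were, with Ppbp at 3.78 to 4.45, and of the macrophage markers 2 of 6 were. Of the myogenic markers 6 of 8 were, with Myf5 lowest at 4.41 to 5.12 and Myh3 highest at 7.20 to 9.15. Of the smooth muscle and pericyte markers 1 of 7 was, and of the adipocyte markers 5 of 6 were, with Lpl highest at 11.71 to 12.23. In these bulk cultures, fewer cells of a type and less RNA per cell cannot be told apart.

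Comp was low in the PDGF-AA cultures with the pA AMO and with the control AMO, and it was not low in those with the 5'ss AMO. With the pA AMO, replicates 1 and 2 had 8.08 and 8.81 with PDGF-AA, against 9.76 and 9.85 without it. With the control AMO they had 8.43 and 9.11 with PDGF-AA, against 9.93 and 10.30 without it. In both the arrays with PDGF-AA lie below those without it, with no overlap, as was so for 12.3% of all clusters with the pA AMO and 13.6% with the control AMO. With the 5'ss AMO, Comp stood at 9.82 and 10.47 with PDGF-AA, against 9.95 and 10.18 without it, and the 2 groups overlap.

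In log2 terms the PDGF-AA difference of Comp was -1.36 with the pA AMO, -1.34 with the control AMO and 0.08 with the 5'ss AMO (SE 0.29 each, n = 2 arrays per group). Within replicate numbers 1 and 2 it was -1.68 and -1.04 with the pA AMO, -1.5 and -1.19 with the control AMO, and -0.13 and 0.28 with the 5'ss AMO. Averaged over the 3 AMOs it came to -0.88 (SE 0.17), where 95 percent of all clusters had a change of less than 0.17 in size. The PDGF-AA difference with the 5'ss AMO exceeded that with the control AMO by 1.42 (SE 0.41), and that with the pA AMO minus that with the 5'ss AMO was -1.44 (SE 0.41). That with the pA AMO minus that with the control AMO was -0.02. The values of Comp led to its choice and are a description. Comp overlaps a noncoding gene, Gm51533, in RefSeq, so part of its signal could come from that transcript.

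**Figure D1:**
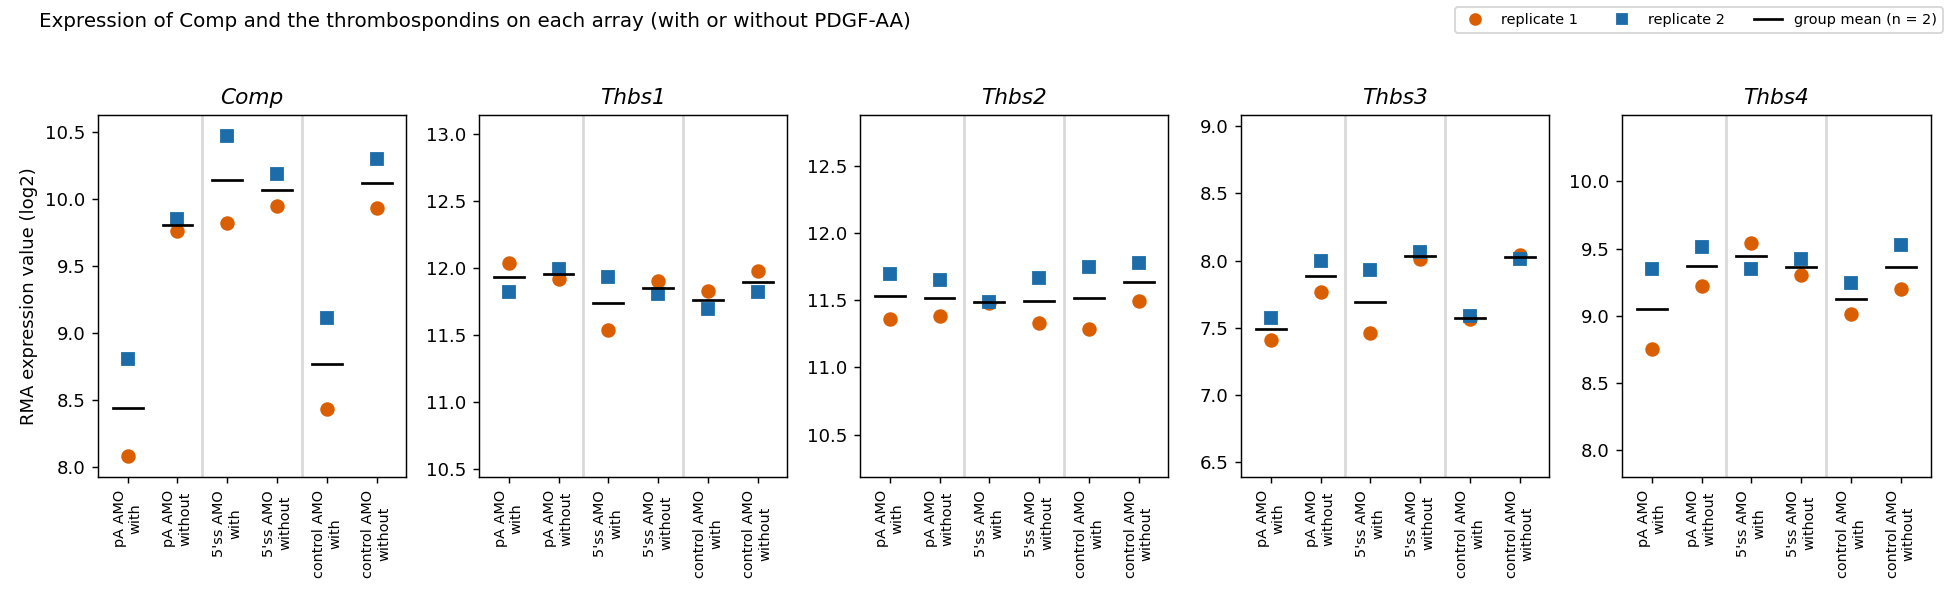
Log2 RMA signal (vertical axis) of each gene in its own panel, for the 3 AMOs with and without PDGF-AA (horizontal axis); points are single arrays and bars are means of 2. In the Comp panel the pA and control AMO arrays with PDGF-AA lie between 8.08 and 9.11, and all others between 9.76 and 10.47.

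Ordered by level, the group means of Comp were 10.14 ± 0.46 for the 5'ss AMO with PDGF-AA, 10.11 ± 0.26 for the control AMO without it, 10.07 ± 0.17 for the 5'ss AMO without it and 9.80 ± 0.06 for the pA AMO without it (SD, n = 2). The control AMO with PDGF-AA followed at 8.77 ± 0.48 and the pA AMO with PDGF-AA at 8.44 ± 0.51. Only 1 step between neighbours in this order, the 1.03 between the pA AMO without PDGF-AA and the control AMO with it, exceeded the within-group SD of 0.37. Comp was higher in replicate 2 than in replicate 1 in 6 of 6 groups, by 0.46 on average, as were 17% of all clusters.

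Thbs3, a pentameric member that in mice bears on the timing of skeletal maturation, was lower with PDGF-AA at every AMO. With the pA AMO the arrays had 7.41 and 7.57 with PDGF-AA, against 7.76 and 8.00 without it. With the 5'ss AMO they had 7.46 and 7.93 with PDGF-AA, against 8.01 and 8.06 without it. With the control AMO they had 7.56 and 7.59 with PDGF-AA, against 8.04 and 8.01 without it. At each AMO both arrays with PDGF-AA lay below both without it. Over all 12 arrays, however, the sets overlap, with 7.41 to 7.93 with PDGF-AA and 7.76 to 8.06 without it.

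Averaged over AMOs, the PDGF-AA change of Thbs3 was -0.40 (SE 0.09, 95 percent interval -0.59 to -0.21). It missed the threshold of 0.05 in limma after Benjamini-Hochberg adjustment over all 21789 clusters, at an adjusted p of 0.407, and with the replicate number as a block it gave an adjusted p of 0.0823. With the block and each array left out in turn, an alternative chosen after seeing the data, the change ranged from -0.46 to -0.33. The -0.46 came without replicate 2 of the 5'ss AMO with PDGF-AA, the highest of the PDGF-AA arrays. The -0.33 came without replicate 1 of the same group. Thbs3 was lower in 6 of 6 pairs of the same AMO and replicate number, where 2.3% of all clusters were lower in every pair. Its group means were 7.49 with the pA AMO and PDGF-AA, 7.69 with the 5'ss AMO and PDGF-AA and 7.57 with the control AMO and PDGF-AA, against 7.88 with the pA AMO, 8.04 with the 5'ss AMO and 8.03 with the control AMO without PDGF-AA. Only the step of 0.19 between the pA AMO without PDGF-AA and the 5'ss AMO with it exceeded the within-group SD of 0.16 in the order of these means. Within single AMOs the changes were -0.39 with the pA AMO, -0.34 with the 5'ss AMO and -0.45 with the control AMO (SE 0.15 each), with adjusted p of 1, 1 and 0.953 in limma. At an unadjusted p under 0.05, Thbs3 was the 1 of the 4 thrombospondins at each AMO, where 2.37% of all clusters were with the pA AMO, 1.64% with the 5'ss AMO and 4.81% with the control AMO. For the differences between PDGF-AA effects 0 of 4 were, where 2.59% of clusters were for the pA AMO against the control AMO, 2.95% for the 5'ss AMO against the control AMO and 1.92% for the pA AMO against the 5'ss AMO. The share of all clusters whose arrays were lower without overlap was 12.3% for the pA AMO, 10.5% for the 5'ss AMO and 13.6% for the control AMO. Thbs3 overlaps a second locus, LOC115489723, in RefSeq, and part of its signal could come from there.

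The promoter windows of Thbs3 and Thbs2 are shown because Thbs3 was lower with PDGF-AA in every pair and Thbs2 was not; RefSeq (GRCm38.p6) gives windows from 250 bases before to 50 after the start for 3 of the 5 genes, which are Thbs2, Thbs3 and Thbs4. Capitals mark matches, on both strands, to 4 motifs, which are the TATA box (TATAAA), the GC box (GGGCGG), the CCAAT box (CCAAT) and the AP-1 site (TGANTCA). 
Thbs3, chr3:89214930-89215229, plus strand: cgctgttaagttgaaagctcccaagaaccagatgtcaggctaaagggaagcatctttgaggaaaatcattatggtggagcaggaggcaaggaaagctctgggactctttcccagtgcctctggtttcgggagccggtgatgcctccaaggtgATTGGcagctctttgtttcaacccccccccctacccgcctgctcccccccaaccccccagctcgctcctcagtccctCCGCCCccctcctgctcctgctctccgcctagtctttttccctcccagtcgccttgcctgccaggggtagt
Thbs2, chr17:14694213-14694512, minus strand: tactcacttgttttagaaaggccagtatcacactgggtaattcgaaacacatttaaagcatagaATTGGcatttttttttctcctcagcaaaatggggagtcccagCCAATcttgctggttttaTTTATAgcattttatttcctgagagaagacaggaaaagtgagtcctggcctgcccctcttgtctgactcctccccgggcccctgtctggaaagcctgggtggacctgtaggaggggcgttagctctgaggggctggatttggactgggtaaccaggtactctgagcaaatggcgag
Thbs3 holds 1 GC box and 1 CCAAT box and no TATAAA. Thbs2 holds 1 TATAAA and 2 CCAAT boxes and no GC box. Thbs4 holds 3 GC boxes and neither of the other two. None of the 3 windows held TGANTCA. Of 32851 RefSeq windows of this length, 13.6% hold the TATA box letters, 35.7% the GC box, 37.4% the CCAAT box and 7.81% the AP-1 site. These are matches of letters and say nothing of binding.

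Thbs4 differed less. With the pA AMO it had 8.75 and 9.35 with PDGF-AA, against 9.22 and 9.51 without it, and with the control AMO 9.01 and 9.24 with PDGF-AA, against 9.20 and 9.53 without it. With the 5'ss AMO it had 9.54 and 9.35 with PDGF-AA, against 9.31 and 9.42 without it. The arrays overlap at each AMO. The changes were -0.32 with the pA AMO, 0.08 with the 5'ss AMO and -0.24 with the control AMO (SE 0.20 each), and -0.16 on average (SE 0.11, adjusted p of 1 in limma). Thbs4 thus had the signs of Comp at each AMO, at a size near its own SE.

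The trimeric members did not pass the test either. With the pA AMO, Thbs1 had 12.04 and 11.82 with PDGF-AA, against 11.92 and 11.99 without it. With the 5'ss AMO it had 11.54 and 11.93 with PDGF-AA, against 11.90 and 11.80 without it. With the control AMO it had 11.83 and 11.69 with PDGF-AA, against 11.98 and 11.82 without it. The arrays overlap at every AMO, and the lowest and highest arrays both had PDGF-AA. Thbs2 had 11.36 and 11.70 with the pA AMO and PDGF-AA, against 11.38 and 11.65 without it, and 11.48 and 11.49 with the 5'ss AMO and PDGF-AA, against 11.33 and 11.66 without it. With the control AMO it had 11.29 and 11.75 with PDGF-AA, against 11.50 and 11.78 without it, and its arrays overlap at every AMO. The PDGF-AA change averaged over AMOs was -0.09 for Thbs1 (SE 0.08, 95 percent interval -0.27 to 0.09) and -0.04 for Thbs2 (SE 0.11, interval -0.28 to 0.21), each with an adjusted p of 1 in limma. Thbs2 was higher in replicate 2 in 6 of 6 groups, by 0.28, more than any change with PDGF-AA that it showed. No step between neighbouring group means exceeded the within-group SD in either gene, 0.15 for Thbs1 and 0.22 for Thbs2.

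Of the 4 thrombospondins, 4 had a negative PDGF-AA change averaged over AMOs, with a median of -0.13 against 0.0014 over all clusters. Of these, 0 passed the adjusted threshold in limma, where 0% of clusters did, and 1, Thbs3, had an unadjusted p under 0.05, where 3.39% of clusters did.

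**Figure D2:**
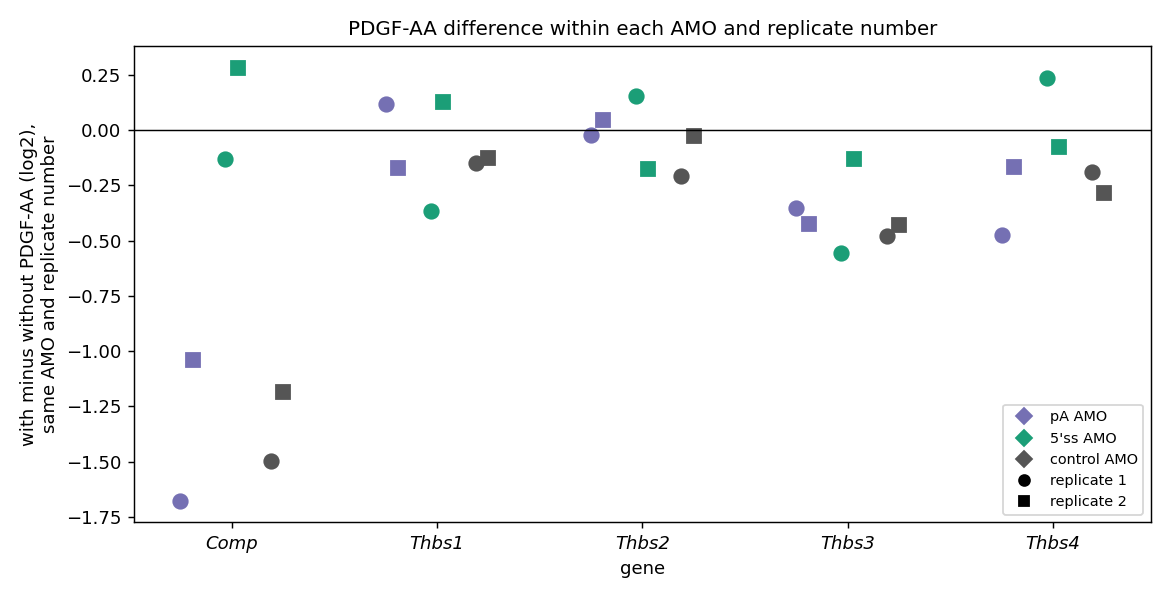
PDGF-AA difference (with minus without, log2, vertical axis) of each gene (horizontal axis) within the same AMO and replicate number; colours are AMOs, circles replicate 1 and squares replicate 2. Comp is at -1.04 to -1.68 with the pA and control AMOs and near 0 with the 5'ss AMO, while all 6 Thbs3 points lie below 0.

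Between AMOs, Comp was higher with the 5'ss AMO than with the other AMOs in the arrays with PDGF-AA. Comp was at 9.82 and 10.47 with the 5'ss AMO and PDGF-AA, against 8.43 and 9.11 with the control AMO and PDGF-AA, a change of 1.37 (SE 0.29) that came to 1.38 and 1.36 within replicates 1 and 2. The adjusted p was 0.464 in limma and 0.0255 with the replicate block, where 0% and 0.101% of clusters passed. With the block and any 1 of the 4 arrays of these groups left out, the change was 1.2384 to 1.5033. The block call of Comp was not kept in any of these fits. Without PDGF-AA the change of Comp between these AMOs was -0.05 (SE 0.29).

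The pA AMO against the 5'ss AMO gave -1.70 for Comp with PDGF-AA (SE 0.29, -1.74 and -1.66 within replicates), with an adjusted p of 0.546 in limma and 0.0122 with the block, where 0% and 0.0138% of clusters passed. Averaged over PDGF-AA it was -0.98 (SE 0.21), at 0.846 in limma and 0.0347 with the block, where 0% and 0.0275% passed. With the block and 1 array left out, the change was -1.859 to -1.5376 with PDGF-AA and -1.0905 to -0.8705 averaged. Most of these fits did not keep the block call of Comp. The pA AMO against the control AMO gave -0.33 with PDGF-AA and -0.31 without it, each with SE 0.29, and -0.32 on average, with an adjusted p of 1 in limma and 0.487 with the block. Without PDGF-AA, Comp was lower with the pA AMO with no overlap against the control AMO, as were 12.3% of clusters, and against the 5'ss AMO (-0.26), as were 10.9%. Thbs3 was also lower with no overlap in both, by -0.15 against the control AMO and -0.16 against the 5'ss AMO. At an unadjusted p under 0.05, 1 of the 5 genes, Comp, was counted in each of 4 contrasts: the 5'ss AMO against the control AMO with PDGF-AA (6% of clusters) and averaged (4.8%), and the pA AMO against the 5'ss AMO with PDGF-AA (3.83%) and averaged (3.47%). For the pA AMO against the control AMO 0 were, with PDGF-AA (4.89%) or averaged (3.25%). With the block, at the same unadjusted level, Comp was counted for the pA AMO against the control AMO averaged (limma p of 0.0155, 9% of clusters), and Thbs4 joined Comp for the pA AMO against the 5'ss AMO with PDGF-AA (limma p of 0.0264, 8.16% of clusters). These contrasts use the PDGF-AA arrays for which Comp was chosen, and the differences were known before, so they are no independent support.

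Of the thrombospondins, Thbs4 had the largest AMO change. It had 9.54 and 9.35 with the 5'ss AMO and PDGF-AA, against 9.01 and 9.24 with the control AMO and PDGF-AA, which do not overlap, as in 12.5% of clusters that were higher. The change was 0.32 (SE 0.20), with an adjusted p of 0.84 in limma, and came to 0.53 and 0.10 within replicates 1 and 2. The pA AMO against the 5'ss AMO with PDGF-AA gave -0.40 for Thbs4 (adjusted p of 1 in limma). That difference lay in replicate 1, with -0.79 there and -0.0015 in replicate 2. The corresponding changes of Thbs1, Thbs2 and Thbs3 with the 5'ss AMO against the control AMO and PDGF-AA were -0.03, -0.03 and 0.12, with intervals of -0.34 to 0.29, -0.45 to 0.39 and -0.21 to 0.45.

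**Figure D3:**
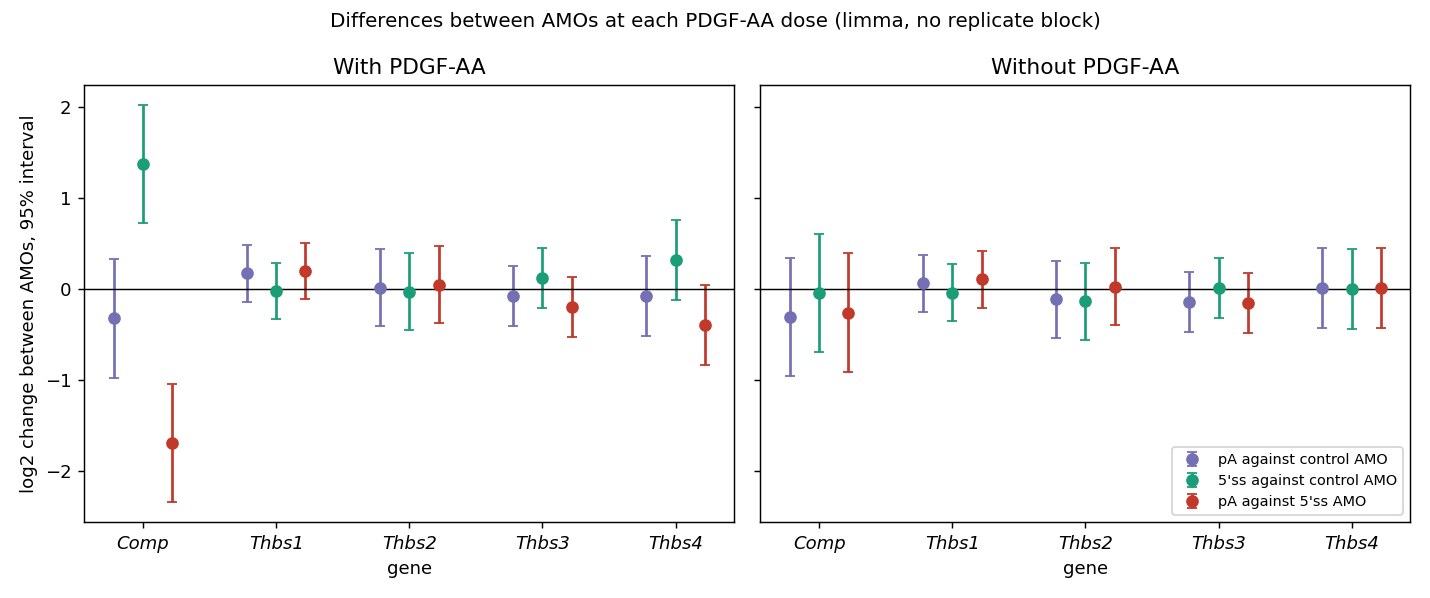
Log2 differences between AMOs (vertical axis) for each gene (horizontal axis), with PDGF-AA on the left and without it on the right; points are limma estimates with no replicate block and bars their 95% intervals. With PDGF-AA, Comp is at 1.37 for the 5'ss AMO against the control AMO and at -1.70 for the pA AMO against the 5'ss AMO, and its intervals there exclude 0; no thrombospondin interval does.

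Across the 12 arrays, with the mean of each replicate number taken out, Comp correlated with Thbs3 at r = 0.77 and with Thbs4 at r = 0.75, and Thbs3 with Thbs4 at 0.40. With Thbs1 and Thbs2, Comp was at -0.06 and 0.06. These are descriptions over arrays that share groups and replicates. Of 12478 clusters above the dim mark, the 6 most like Comp were Wfdc17 (r = 0.976), Gas6 (0.973), a secreted ligand of the TAM receptor kinases, Trabd2b (0.97), a Wnt-inhibiting metalloprotease, Adh1 (0.966), an alcohol dehydrogenase, Ddx51 (0.965) and Pdlim2 (0.962). Keeping the replicate means, Pdlim2 was at 0.64 and the other 5 were at 0.947 to 0.974. The clusters most like Thbs3 were Prrx2, a homeobox gene of mesenchyme (r = 0.983), Egfl6 (0.942) and Olfml3 (0.93). Those most like Thbs4 were Rgs16 (0.935), Mrpl37 (0.934) and Htra3 (0.93), a serine protease. Those most like Thbs1 were Hs6st2 (0.96), Slc25a37 (0.946) and Cthrc1 (0.944), and most like Thbs2 were Gstt2 (0.894), Sgce (0.888) and Fam53a (0.886).

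**Figure D4:**
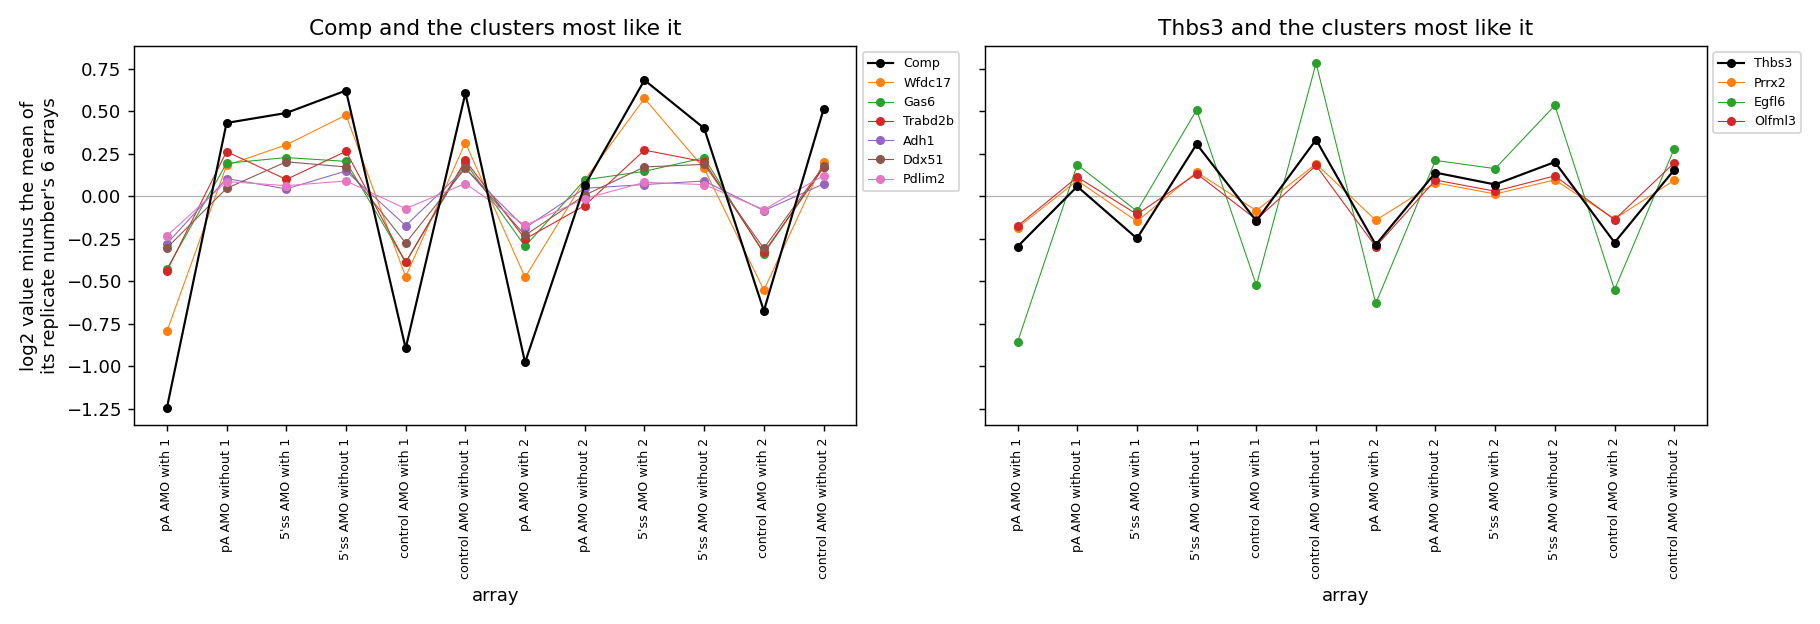
Log2 value minus the mean of the 6 arrays of its replicate number (vertical axis) for Comp, Thbs3 and the clusters most like each, over the 12 arrays (horizontal axis, AMO, PDGF-AA and replicate number); lines only join points of a gene. Comp dips in the pA and control AMO arrays with PDGF-AA, to -1.25 and -0.90 in replicate 1, and the 6 others dip in the same arrays by less.

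The proteins that thrombospondins bind, and those that act on them, were read from lists chosen with earlier results known. Over 7 lists, 0 members passed in limma for PDGF-AA averaged over AMOs, where 0% of all clusters did. Of 11 receptors, 6 were above 0 and 5 below, with a median of 0.01; Itgav (0.14) and Itga6 (0.11) stood highest and Itgb3 (-0.09) and Itga3 (-0.08) lowest, all integrin chains. Of 11 matrix proteins that COMP binds, Col9a1 (0.06) and Col9a3 (0.04) stood highest and Matn1 (-0.20) and Matn3 (-0.05) lowest, with a median of 0.01. Of the 4 proteases known to cleave COMP or thrombospondins, Adamts1 (0.22), Adamts12 (0.16) and Adamts7 (0.06) were above 0 and Adamts4 (-0.10) below.

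Among 8 TGF-beta ligands and latency proteins, Ltbp1 (0.13) and Ltbp4 (0.06) stood highest and Tgfb2 (-0.28) and Ltbp2 (-0.22) lowest, with a median of -0.05. Among 5 TGF-beta targets 4 were above 0 and 1 below, with Smad7 (0.09) and Skil (0.06) highest and Tgfbi (-0.21) and Pmepa1 (0.04) lowest. Among 5 tendon markers, Scx (0.10) and Kera (-0.01) stood highest and Fmod (-0.53) and Tnmd (-0.16) lowest. Fmod, a small proteoglycan that binds collagen, reached an adjusted p of 0.322 in limma and 0.0481 with the replicate block, where 0.0964% of clusters passed; the block was not repeated with arrays left out for Fmod. Among 9 cartilage markers, Hapln1 (0.06) and Chad (0.04) stood highest and Cilp (-1.06, SE 0.22) and Sox9 (-0.09) lowest.

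For the 5'ss AMO against the control AMO with PDGF-AA, the contrast in which Comp was high, Fmod stood at 0.68 and Tnmd at 0.26 among tendon markers, with 5 of 5 above 0 and a median of 0.18, against -0.02 over all clusters. Tgfbi, a secreted matrix protein induced by TGF-beta, was 0.79 higher (SE 0.10), with an adjusted p of 0.132 in limma and 0.0196 with the block, where 0.101% of clusters passed. The block was not repeated with arrays left out for Tgfbi. Of the 5 TGF-beta targets, 4 were above 0 and 1, Pmepa1, was below, with a median of 0.06. Without PDGF-AA, Tgfbi was also higher with the 5'ss AMO, at 9.49 and 9.66, against 9.16 and 9.33 with the control AMO. The change of Comp there was -0.05. The summed linear signal of the 5 tendon markers was 623 and 708 with the 5'ss AMO and PDGF-AA, against 509.5 and 524 with the control AMO and PDGF-AA. Over all AMOs it was 509 to 708 with PDGF-AA and 622 to 684 without it. For 9 cartilage markers it was 1670 to 2150 with PDGF-AA, against 2040 to 2550 without it. With the 5'ss AMO and PDGF-AA the cartilage sum was 1772 and 2145, against 1909 and 1753 with the control AMO and PDGF-AA. In that contrast 5 of the 9 cartilage markers were above 0 and 4 below, with a median of 0.01. Cilp had 7.67 and 8.64 there with the 5'ss AMO, against 8.39 and 7.89 with the control AMO. Such sums weigh the brighter genes most. Averaged over AMOs, the log2 change with PDGF-AA was above 0 for 5 of the 9 cartilage markers and below for 4. Their median was 0.03, and Cilp was lowest. Of the 5 tendon markers, 1 was above 0 and 4 were below, with a median of -0.01 and Fmod lowest. The part of these cell types in the values of Comp was not tested. Of 6 macrophage markers, 2 were above 0 and 4 below between these AMOs, with a median of -0.08, Lyz2 highest at 1.10 (adjusted p 0.281 in limma) and Itgam lowest at -0.36. Their sum was 390.3 and 462.8 with the 5'ss AMO and PDGF-AA, against 376 and 335.4 with the control AMO and PDGF-AA. These sums are in arbitrary units of signal.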

How the data were processed

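Expression was measured on 12 Affymetrix Mouse Gene 1.0 ST arrays. The deposited values are log2 signals made by the authors; the submitters' processing notes name RMA and the Affymetrix Expression Console without versions, and the genome build is not given in the sources used here. RMA corrects background, equalises the arrays' distributions and summarises probes, so absolute differences between arrays cannot be read from the values. The array medians of the deposited values still differed, from 6.04 to 6.23. No scanner files were used. The platform annotation gives several symbols to 1621 clusters and lists none for 12146.

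limma 3.58.1 in R 4.3.3 was fitted as a means model of the 6 groups on all 12 arrays (6 residual degrees of freedom), with empirical Bayes moderation, Benjamini-Hochberg adjustment over 21789 clusters and 16 contrasts. Tests are two-sided. The number of arrays limits the precision.

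Arrays of the same replicate number deviated together in 15 of 15 pairs of groups (r of 0.2 to 0.61 across clusters), and 12 of 12 arrays were closest to one of their own number. No label says what a number shares, so the pairing is a hint from the data; the block value is given where it changes a call.

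Members and gene lists were chosen with earlier results of these data known. For PDGF-AA averaged over AMOs, the 2 largest and 2 smallest changes of each list are named. For the 5'ss AMO against the control AMO with PDGF-AA, fewer members are named, picked with their values known. Likeness is Pearson's r over 12 arrays, 6 clusters for Comp and 3 for each other gene. Of the listed symbols, 6 had no single-symbol cluster. The fit was tested on simulated data.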

Additional observations from a re-analysis of the deposited data

How the results depend on the processing

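With the replicate number as a block, the members called went to 1 of 5, Comp, in each of 4 comparisons. These were PDGF-AA averaged over AMOs (0.0964% of all clusters passed) and the 5'ss AMO against the control AMO with PDGF-AA (0.101%). The others were the pA AMO against the 5'ss AMO averaged (0.0275%) and with PDGF-AA (0.0138%). Intensity-trend moderation also gave 1 for PDGF-AA averaged over AMOs. With the block and each array left out, an alternative chosen after seeing the data, Comp changed by -0.9487 to -0.8021 for PDGF-AA averaged. For the 5'ss AMO against the control AMO with PDGF-AA the range was 1.2384 to 1.5033. For the pA AMO against the 5'ss AMO it was -1.0905 to -0.8705 averaged and -1.859 to -1.5376 with PDGF-AA. Most of these fits did not keep the block call of Comp. The number of all clusters called also differed between them, so no kept call is read as support. In the same fits the change of Thbs3 for PDGF-AA averaged was -0.46 to -0.33, the former without replicate 2 of the 5'ss AMO with PDGF-AA. The block changed no other call of a member at the adjusted threshold. Comp was chosen on its PDGF-AA values, and all 4 comparisons use the arrays with PDGF-AA, so nothing is read from its counts in them. The small Thbs2 change turned positive without replicate 2 of the pA (0.01), 5'ss (0.02) or control AMO (0.01) without PDGF-AA, and without replicate 1 of the pA (0.02) or control AMO (0.0391) with it, over a range of -0.1156 to 0.0391. With the 5'ss AMO, the PDGF-AA change of Comp turned to -0.04 without replicate 1 of the group without PDGF-AA and to -0.25 without replicate 2 of the group with it, and that of Thbs4 to -0.0171 without replicate 1 of the group with it, over ranges of -0.25 to 0.4012 and -0.0171 to 0.1772. The other gene values, 324 of 337, kept direction and call; Comp averaged over AMOs ranged from -1.0 to -0.75 and Thbs3 from -0.47 to -0.32. With replicate means kept, r was lower for Pdlim2 with Comp (0.64), Slc25a37 and Cthrc1 with Thbs1 (0.823 and 0.781) and Rgs16 with Thbs4 (0.794). The causes of the changes were not tested.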

Other observations

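Cd36, the scavenger receptor that binds Thbs1 and Thbs2 through their type 1 repeats, varied more between arrays than any family member. With PDGF-AA, replicates 1 and 2 had 5.84 and 7.81 with the pA AMO, 9.35 and 7.64 with the 5'ss AMO, and 5.0 and 7.96 with the control AMO. Without PDGF-AA they had 6.48 and 7.96 with the pA AMO, 6.20 and 7.94 with the 5'ss AMO, and 6.54 and 8.26 with the control AMO. Replicate 2 was higher in 5 of 6 groups, the exception being the 5'ss AMO with PDGF-AA. Its change for the 5'ss AMO against the control AMO with PDGF-AA was 2.01 (SE 1.08). The adipocyte markers Fabp4 and Adipoq stood at 1.81 and 1.59 in the same contrast. Of 6 such markers, 5 were above 0 and 1, Lpl, was below, with a median of 0.84. In replicate 1 with PDGF-AA, their mean log2 was 9.36 with the 5'ss AMO, against 7.48 with the control AMO. In replicate 2 it was 8.54, against 8.68. The part of these markers in the Cd36 values was not tested.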
